A study of Mus musculus with 12 samples.

Results

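Collagens are the main structural proteins of the extracellular matrix, and the genes described here are the 44 collagen chain genes among 43243 gene names measured in 12 RNA-seq libraries of mouse prostate organoids. Members were taken by symbol, as every name of the form Col, a type number, the letter a and a chain number. No expression value entered that rule, but the collagen family was chosen with earlier results of these data known. By the family's known structure, 11 of the 44 encode fibrillar chains, 6 the chains of type IV, 3 other collagens of the basement membrane zone, 6 type VI chains, 9 fibril associated chains, 3 short chain network collagens, 4 transmembrane collagens and 2 other collagens. Of the 44 genes, 31 reached a level of at least 1 RPKM (reads scaled to gene length and library depth) in at least 1 library, and 13 were below 1 RPKM in all 12.

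A collagen molecule is a triple helix of chains that are hydroxylated and folded in the endoplasmic reticulum, secreted, and trimmed at their ends. Fibrillar collagens assemble into cross-linked fibers and come mostly from fibroblasts and related stromal cells, while type IV collagen forms the sheet-like network of basement membranes, to which epithelial cells attach. Some collagens, types I, IV and VI among them, are built from chains of more than one gene. For these, the ratio between chain genes can be read within a library.

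The libraries were numbered S0 to S5 in each of 2 groups, 6 labelled SPOPmut (organoids with a mutant of SPOP, the substrate-binding subunit of a ubiquitin ligase) and 6 labelled SPOPwt (controls), and were treated as 6 pairs. By the labels' protocols, cells of digested mouse prostates grew in Matrigel with 5 to 50 ng/ml EGF, and a tamoxifen-dependent Cre recombinase (CreERT2) was activated overnight with 1 µM 4-hydroxytamoxifen; whether the controls received it is not stated. The recombinase came from a virus followed by puromycin selection, or from a TMPRSS2-CreERT2 transgene, with 5 pairs of model A and 1 pair of model B, and no label assigns a pair to a model. SPOPmut cells were sorted for GFP and controls were sham-sorted, so genotype and sorting cannot be told apart. The protocols name the allele R26F133V only for a further, non-inducible line, and no source used here gives the age or strain of the mice. Nothing in the labels says that the pairs of a model came from separate mice or cultures, so p-values measure the spread between these libraries, which may be technical.

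Estimated depth was 28260000 to 40980000 reads per library. Cell type markers set the S5 pair apart from the others, which come from prostate organoids too. The summed level of 8 basal epithelial markers was 2.49 to 9.58 RPKM over the 10 libraries of S0 to S4 and 2212 to 3151 RPKM for S5. That of 10 luminal markers was 66.7 to 209 RPKM against 1688 to 1735 RPKM. The order was the reverse for 8 fibroblast markers (1634 to 2692 RPKM against 5.13 to 8.75 RPKM for S5) and 6 smooth muscle markers (113 to 809 and 2.45 to 3.85 RPKM). The most abundant basal markers, Krt5 and Krt14, were at most 0.24 and 0.20 RPKM in S0 to S4, while the luminal Krt18 and Krt19 reached 89.6 and 72.2 RPKM there. The most abundant fibroblast markers, S100a4 and Vim, were at most 8.52 and 0.058 RPKM in S5, and the smooth muscle markers Acta2 and Tagln at most 2.26 and 1.70 RPKM. Among defining markers at 0 was the prostate secretory gene Pbsn, listed so in all 12 libraries. Sums over 6 endothelial markers (0.034 to 2.19 RPKM for S0 to S4, 0.10 to 0.16 for S5) and 6 leukocyte markers (2.35 to 5.18 and 3.93 to 4.22) were low throughout, with maxima of 0.45 RPKM for Pecam1, 0.83 for Cdh5, 4.74 for Cd68 and 0.45 for Lyz2. In these bulk samples, fewer cells of a type and less RNA per cell cannot be told apart. The S1 and S2 libraries of a group were the most alike, with a median chi-square per gene of 1.09 for the controls and 1.84 for the mutants, where sampling alone gives 0.455 and the next closest libraries of a group gave 6.46.

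Collagen genes together took 0.364 to 0.848% of the summed RPKM of a library in S0 to S4, and 0.0790 to 0.0914% for S5. In S0 to S4 the collagen pool was mostly fibrillar: Col3a1 made up 24.7 to 39.6% of it and Col1a1 16.6 to 30.5%. In S5 the pool was a different one, of which Col17a1 made up 37.2 to 39.6%, Col18a1 27.3 to 27.8% and Col8a1 7.72 to 11.4%. Among the 19 collagen genes that passed the level filter (at least 1 RPKM in at least 6 libraries), 15 had both S5 libraries below all 10 others, against 28.1% of all 13600 genes that passed it, and 2 had both above, against 21.4%. The filter leaves out genes that were high in S5 alone. Among the 29 collagen genes at 1 RPKM or more in at least 2 libraries, 17 lay below (27% of all such genes) and 8 lay above (24.9%). These are descriptions, with no test, because S5 is 1 pair and was singled out with its values known.

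**Figure D1:**
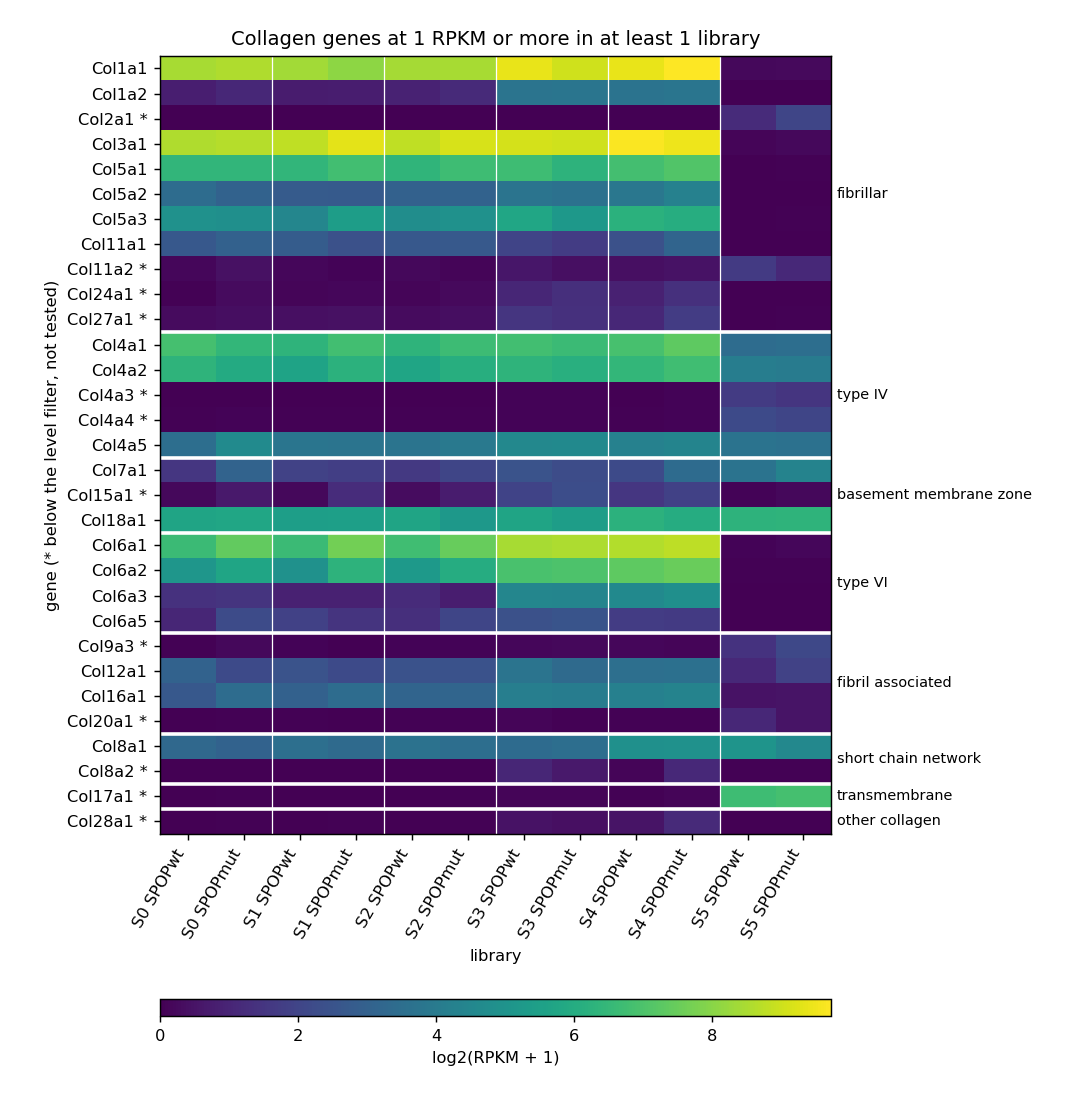
Level of the 31 collagen genes that reached 1 RPKM in at least 1 library, as log2(RPKM + 1) by color, with 1 column per library in pairs S0 to S5 and 1 row per gene, grouped by collagen class. The abundant fibrillar and type VI rows, such as Col1a1, Col3a1 and Col6a1, are bright in S0 to S4 and dark in S5, while Col2a1, Col11a2 and Col17a1 are brighter in S5.

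Type I and type III collagens, which form the bulk of fibers in stroma, were high in all 10 libraries of S0 to S4. Col1a1, the main chain of type I collagen (chromosome 11, 94936224 to 94953042, GRCm38), stood at 378, 269, 353, 526 and 848 RPKM in the SPOPmut libraries of S0, S1, S2, S3 and S4, and at 351, 336, 344, 679 and 682 RPKM in their controls. In S5 its levels were 0.20 (SPOPmut) and 0.16 RPKM (SPOPwt). Every library of S3 and S4 was thus above every library of S0 to S2, and S5 lay far below, with a mean 2622-fold lower than that of the others.

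Col3a1, the only chain of type III collagen (chromosome 1, 45311538 to 45349706), stood at 396, 641, 568, 519 and 723 RPKM in the SPOPmut libraries of S0 to S4, at 380, 443, 445, 549 and 819 RPKM in the controls, and at 0.15 and 0.11 RPKM in S5. Its levels overlapped among the pairs S1 to S3, with S0 below and S4 above them. Within a library, Col1a1 ranked between 18 and 172 and Col3a1 between 21 and 110 among all gene names in S0 to S4, so both belonged to the most abundant transcripts there.

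Col1a2, the partner chain of Col1a1 in type I collagen (chromosome 6, 4504814 to 4541544), did not share its level. It stood at 1.13, 0.70, 1.22, 12.9 and 12.9 RPKM in the SPOPmut libraries of S0 to S4 and at 0.75, 0.67, 0.89, 12.3 and 12.2 RPKM in the controls, and at 0.0073 and 0.0020 RPKM in S5. The S3 and S4 libraries formed a narrow upper group and those of S0 to S2 a lower one. Within libraries, Col1a2 was 0.201 to 0.346% of Col1a1 in S0 to S2 and 1.52 to 2.45% in S3 and S4, that is, Col1a1 exceeded it 289- to 498-fold and 40.8- to 65.7-fold. The common form of type I collagen holds Col1a1 and Col1a2 chains together, and a form of Col1a1 chains alone is also known. The summed exons of Col1a2 in GENCODE M21 are 1.89 times as long as those of Col1a1, and no source used here gives the length that the authors divided by. Another length would scale the ratio by the same factor in every library.

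Because Col1a2 and Col3a1 are both fibrillar chains that stood far apart in level, the sequences upstream of their RefSeq starts (GRCm38.p6) are shown for comparison. They are the longest runs free of GENCODE M21 exons within the 250 bases before the start, on the gene's own strand, at chr1:45311288-45311537 (plus strand) for Col3a1 and chr6:4505370-4505492 (plus strand) for Col1a2. The Col1a2 stretch lies between exons of the M21 gene, 125 bases short of the RefSeq start. Capitals mark matches to a TATA box (TATAAA) or a GC box (GGGCGG). These and the CCAAT box (CCAAT) were searched on both strands.
Col3a1: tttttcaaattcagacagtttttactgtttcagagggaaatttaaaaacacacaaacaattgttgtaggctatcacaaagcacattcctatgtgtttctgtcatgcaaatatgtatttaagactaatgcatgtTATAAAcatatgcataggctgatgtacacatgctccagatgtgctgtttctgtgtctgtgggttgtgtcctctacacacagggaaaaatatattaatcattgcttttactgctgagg
Col1a2: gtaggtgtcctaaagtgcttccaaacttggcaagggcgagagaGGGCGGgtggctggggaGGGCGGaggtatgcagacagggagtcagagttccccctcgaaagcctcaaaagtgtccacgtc
The Col3a1 stretch holds 1 TATAAA, 112 to 117 bases before the start, as do 12.4% of all 32851 RefSeq windows of that length. The Col1a2 stretch holds 2 copies of GGGCGG, which occurs in 13.3% of all windows cut to the same bases. No other match was found in either stretch. Col1a1 has no entry in the promoter table used here.

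Type V and type XI chains join fibers of type I collagen and set their diameter. Over the 10 libraries of S0 to S4, Col5a1 ranged from 78.0 to 136 RPKM, Col5a3 from 20.8 to 72.9 RPKM, Col5a2 from 5.82 to 18.5 RPKM and Col11a1 from 2.36 to 7.83 RPKM. All 4 were at or below 0.043 RPKM in S5. In S0 to S4 their order of level was the same in every library, Col5a1 over Col5a3 over Col5a2 over Col11a1, except that Col11a1 was just above Col5a2 in the S1 control (6.17 against 5.92 RPKM). Col24a1 and Col27a1, 2 minor fibrillar chains, passed 1 RPKM in libraries of S3 and S4 alone, with maxima of 1.53 and 2.28 RPKM. Col2a1 and Col11a2, known as cartilage collagens, ran the other way and are described with S5.

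**Figure D2:**
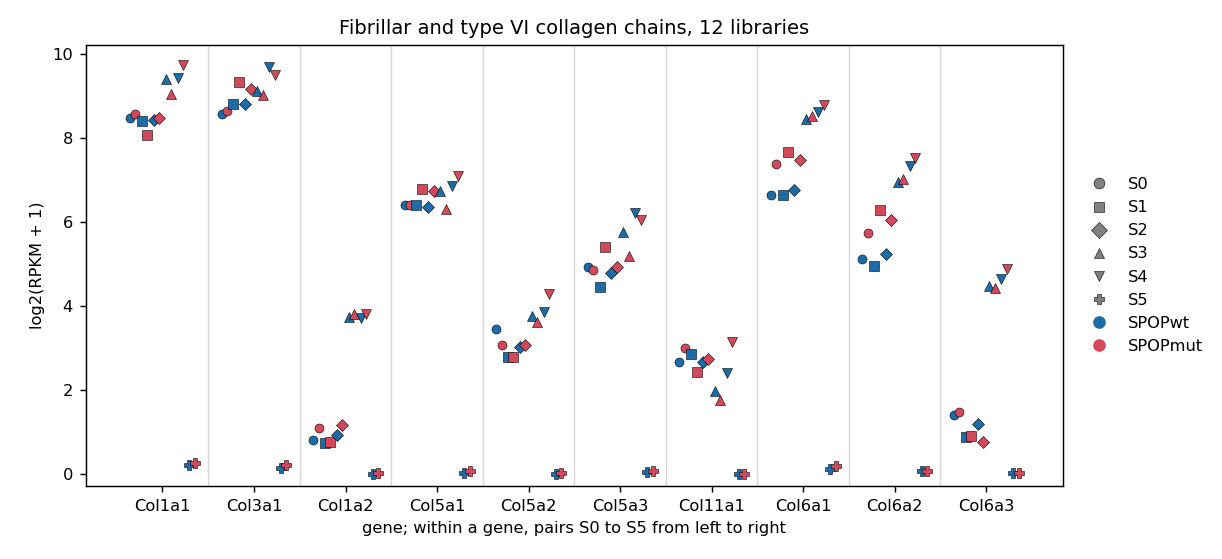
Level of 7 fibrillar and 3 type VI chains in each of the 12 libraries, as log2(RPKM + 1), with 1 point per library, symbols for the pairs S0 to S5 and colors for the group. Col1a2 and Col6a3 show a gap between S0 to S2 and S3 to S4, Col5a1 does not, and all S5 points lie near 0.

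Type VI collagen forms beaded filaments between fibers and cells, from chains of Col6a1, Col6a2 and a longer chain such as Col6a3. Col6a1 (chromosome 10, 76708792 to 76726168) stood at 165, 200, 177, 368 and 437 RPKM in the SPOPmut libraries of S0 to S4, at 98.2, 99.3, 107, 350 and 392 RPKM in the controls, and at 0.13 and 0.081 RPKM in S5. Col6a2, which lies on the same chromosome (76595762 to 76623630), stood at 52.2, 77.1, 64.7, 129 and 183 RPKM, at 33.4, 29.6, 36.3, 123 and 160 RPKM in the controls, and at 0.038 and 0.044 RPKM in S5. Both chains were higher in every library of S3 and S4 than in any of S0 to S2, and Col6a2 held 29.8 to 41.9% of the Col6a1 level in all 10 libraries.

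Col6a3 (chromosome 1, 90765923 to 90843971) stood at 1.77, 0.86, 0.70, 20.4 and 28.1 RPKM in the SPOPmut libraries of S0 to S4, at 1.62, 0.85, 1.27, 21.3 and 23.8 RPKM in the controls, and at 0.015 and 0.0041 RPKM in S5. It was 0.396 to 1.65% of Col6a1 in S0 to S2 and 5.53 to 6.43% in S3 and S4, so this chain, like Col1a2, was low beside its partners and lower still in S0 to S2. Its summed M21 exons are 2.73 times as long as those of Col6a1. Of the further long chains, Col6a5 ranged from 1.04 to 4.76 RPKM over S0 to S4 and reached at most 0.0014 RPKM for S5, while Col6a4 and Col6a6 were at most 0.38 and 0.055 RPKM in any library.

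The upstream sequences of Col6a1 and Col6a3 are shown because the chains share a molecule and differ in level. They lie at chr10:76726169-76726294 (minus strand) and chr1:90843972-90844221 (minus strand) and were chosen in the same way. No match to the 3 motifs was found in either. The Col6a1 stretch ends 124 bases short of the RefSeq start, and the bases between were not searched, while that of Col6a3 reaches its start.
Col6a1: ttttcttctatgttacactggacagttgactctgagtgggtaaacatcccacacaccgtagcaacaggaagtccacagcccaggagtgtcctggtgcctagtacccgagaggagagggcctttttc
Col6a3: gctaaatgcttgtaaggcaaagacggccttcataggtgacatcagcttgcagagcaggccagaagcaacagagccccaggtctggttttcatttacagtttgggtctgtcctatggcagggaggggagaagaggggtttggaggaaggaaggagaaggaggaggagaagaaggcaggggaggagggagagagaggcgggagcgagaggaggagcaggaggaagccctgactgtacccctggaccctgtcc

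The Col1a2 and Col6a3 differences among S0 to S4 were the largest of the 19 tested collagen genes. In limma without the S5 pair, the test of whether pairs differ beyond the residual spread gave an adjusted p of 0.000697 for Col1a2 and 0.00091 for Col6a3. It called 10 of the 19 genes at an adjusted p under 0.05, against 28.7% of all 13600 genes tested: Col1a1, Col1a2, Col3a1, Col5a2, Col6a1, Col6a2, Col6a3, Col12a1, Col16a1 and Col8a1. With S5 in the fit 18 of 19 were called, against 68.2% of all genes, and Col4a5 was not (limma adjusted p = 0.0754). Without a filter on level, 31 of the 44 were called, against 41.6% of all genes. In 8 of the 19 genes all 4 libraries of S3 and S4 lay above all 6 of S0 to S2, as they did for 16.8% of all genes tested, and in 0 they lay below, against 7.52%. That split was chosen with the values known and has no test. The 8 were the called genes other than Col3a1 and Col8a1.

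Fibroblast receptor genes were split in the same way: Pdgfra ranged from 3.64 to 10.4 RPKM over S0 to S2 and from 33.2 to 38.8 RPKM over S3 and S4, and Pdgfrb from 13.7 to 34.4 and from 62.1 to 91.2 RPKM. Decorin (Dcn), a proteoglycan that binds collagen fibers, stood at 11.7 to 39.5 and 123 to 201 RPKM. Over the whole fibroblast list the summed level was 2140 to 2692 RPKM for S0 to S2 and 1634 to 2119 RPKM for S3 and S4, a sum made up mostly of S100a4 (1290 to 2266 RPKM over S0 to S4) and Vim. Prrx1 of that list stood at 0.16 to 1.12 and 1.71 to 2.39 RPKM, and Thy1 and Fap were at most 0.020 and 0.12 RPKM. The part of these genes in the collagen differences was not tested.

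**Figure D3:**
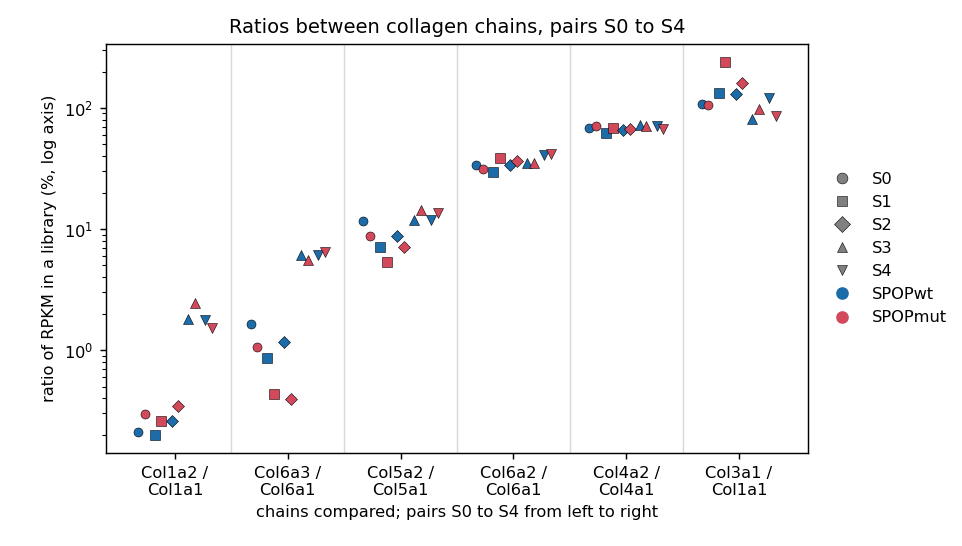
Ratio of the RPKM of paired collagen chains within each library of S0 to S4, in percent on a log axis, with 1 point per library. Col1a2 to Col1a1 and Col6a3 to Col6a1 are higher in S3 and S4 than in S0 to S2, while Col4a2 to Col4a1 stays between 62.7 and 72.7%.

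Fibril associated collagens sit on the surface of fibers. Col12a1 stood at 3.53, 3.53, 4.49, 9.34 and 11.1 RPKM in the SPOPmut libraries of S0 to S4 and at 7.29, 4.55, 4.41, 12.4 and 10.8 RPKM in the controls, and at 2.75 and 1.16 RPKM in S5, so it was low but not lost there. Col16a1 stood at 9.89, 9.88, 8.06, 16.1 and 19.5 RPKM, at 5.39, 7.14, 7.76, 16.8 and 18.1 RPKM in the controls, and at 0.43 and 0.40 RPKM in S5. Both were higher in S3 and S4 than in S0 to S2. Of the other 7, Col9a3 and Col20a1 passed 1 RPKM in S5 alone, and Col9a1, Col9a2, Col14a1, Col19a1 and Col22a1 were at most 0.64 RPKM.

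Col4a1, Col4a2 and Col4a5 of type IV were among the 7 collagen genes at 1 RPKM or more in all 12 libraries, with Col7a1 and Col18a1 of the basement membrane zone, Col12a1 and Col8a1. Col4a1, which with Col4a2 makes the common type IV collagen (chromosome 8, 11198423 to 11312826), stood at 86.7, 109, 101, 97.0 and 159 RPKM in the SPOPmut libraries of S0 to S4 and at 115, 78.4, 79.0, 109 and 119 RPKM in the controls. In S5 it stood at 10.3 and 9.74 RPKM, 10.5-fold lower on average. The difference was far smaller than that of the fibrillar chains.

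Col4a2 (chromosome 8, 11312805 to 11449287) stood at 61.4, 74.6, 68.2, 68.7 and 108 RPKM in SPOPmut, at 78.8, 49.1, 51.8, 79.2 and 85.0 RPKM in the controls, and at 15.6 (SPOPmut) and 16.6 RPKM in S5. The order of the chains turned: Col4a2 was 62.7 to 72.7% of Col4a1 in all 10 libraries of S0 to S4, but 151 and 171% in the S5 libraries. These genes are transcribed in opposite directions from starts that overlap by 22 bases in M21. The library kit does not mark strand, so reads from that overlap cannot be assigned. Neither gene differed between the pairs S0 to S4 past the threshold (limma adjusted p of 0.251 and 0.217).

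Col4a5 (chromosome X, 141475385 to 141689234) ranged from 10.3 to 24.3 RPKM over S0 to S4, and its S5 levels of 11.2 (SPOPmut) and 12.1 RPKM lay inside that range. It was 109 and 124% of Col4a1 in the S5 libraries and 9.02 to 28.0% of it elsewhere. Col4a3 and Col4a4, whose chains join that of Col4a5 in the specialised network known from kidney and lung, were at most 0.066 and 0.070 RPKM in S0 to S4. In S5, Col4a3 stood at 1.84 (SPOPmut) and 2.22 RPKM and Col4a4 at 3.13 and 3.58 RPKM. Col4a3 was 59.0 and 62.0% of Col4a4 in the S5 libraries. Both were picked out after their values were seen. They too lie head to head, with 71 bases between their starts at chr1:82586850-82586920, shown here on the strand of Col4a4 (minus) because the genes begin just beyond its ends:
Col4a4 to Col4a3: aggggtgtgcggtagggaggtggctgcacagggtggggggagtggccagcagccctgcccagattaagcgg
Col4a6, which lies 1308 bases from Col4a5 in the same arrangement, was at most 0.49 RPKM in any library and did not follow.

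Of the other basement membrane zone collagens, Col7a1 and Col18a1 were higher in S5 than anywhere else, and Col15a1 was not. Col7a1, the anchoring fibril collagen that ties epithelium to stroma (chromosome 9, 108953586 to 108984875), stood at 19.53 and 12.02 RPKM in the SPOPmut and SPOPwt libraries of S5. In S0 to S4 it stood at 7.64, 2.49, 3.12, 3.75 and 9.58 RPKM in SPOPmut and at 1.88, 2.75, 2.05, 4.63 and 3.50 RPKM in the controls, below both S5 libraries. Col18a1, the source of endostatin (chromosome 10, 77052178 to 77166548), stood at 79.7 and 76.4 RPKM in S5, at 52.7, 44.0, 35.5, 41.5 and 64.9 RPKM in the SPOPmut libraries of S0 to S4 and at 49.8, 43.1, 50.5, 50.1 and 74.3 RPKM in the controls. Its level in S5 was only 1.54 times the mean of the others, and the S4 control was close to it. Col18a1 overlaps Slc19a1 on the opposite strand, and the share of its reads that comes from that gene was not tested. Col15a1 was at most 3.89 RPKM, with its highest values in S3 and S4.

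Col17a1, the transmembrane collagen of hemidesmosomes in basal epithelial cells (chromosome 19, 47646344 to 47692094), was the most abundant collagen gene of S5. Its S5 levels were 115 (SPOPmut) and 102 RPKM (SPOPwt), and the 10 other libraries ranged from 0.016 to 0.098 RPKM. The hemidesmosome integrin gene Itgb4 stood at 69.0 and 71.6 RPKM in S5 and at 0.049 to 0.91 RPKM elsewhere. The other 3 transmembrane collagens, Col13a1, Col23a1 and Col25a1, were at most 0.35 RPKM in any library. The sequence upstream of the M21 start of Col17a1, at chr19:47692095-47692292 (minus strand), is shown because this gene was the most abundant collagen gene of S5 and near 0 elsewhere. The RefSeq start lies 52 bases further downstream of its 3′ end.
Col17a1: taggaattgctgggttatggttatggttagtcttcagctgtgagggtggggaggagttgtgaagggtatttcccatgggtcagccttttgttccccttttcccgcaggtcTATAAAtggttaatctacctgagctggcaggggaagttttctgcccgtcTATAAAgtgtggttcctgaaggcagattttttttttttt
The capitals mark 2 copies of TATAAA, 34 to 39 and 83 to 88 bases from the 3′ end of the stretch, a motif that 9.08% of all RefSeq windows hold when cut to the same bases. No match to the other motifs was found.

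Of the fibrillar and fibril associated genes known from cartilage, 3 were above all other libraries in S5 and others were not. Col2a1 stood at 3.06 (SPOPmut) and 1.27 RPKM there against at most 0.016 RPKM in the other pairs, Col11a2 at 1.19 and 2.11 RPKM against 0.082 to 0.52, and Col9a3 at 3.33 and 1.68 RPKM against 0.013 to 0.16. All 3 were picked out after their values were seen. Col11a1, by contrast, was listed at 0 and 0.0013 RPKM in S5 against 2.36 to 7.83 RPKM elsewhere, Col9a1 was listed at 0 in both S5 libraries, and Col9a2 (at most 0.056 RPKM) overlapped. Of 6 chondrocyte and osteoblast markers, Sox9 had 50.2 and 43.4 RPKM in S5 against 6.91 to 18.1 RPKM elsewhere, and the other 5 were below 1 RPKM in all libraries, among them Bglap (at most 0.47 RPKM), Acan (at most 0.036 RPKM) and Matn1 (0.074 RPKM). Of 5 mesothelial markers, 4 were above all others in S5, but 3 of the 5 were below 1 RPKM in all libraries. The 2 that passed the level filter, Msln and Krt19, were both above, as were 21.4% of all genes tested. Msln stood at 308 and 520 RPKM there against 31.8 to 194 RPKM elsewhere and Krt19, also a luminal marker, at 336 and 413 RPKM against 7.06 to 72.2, and Upk3b and Wt1 were at most 0.11 and 0.0049 RPKM. Whether cells of these types were present, and their part in the S5 collagens, was not tested.

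Among the short chain collagens, Col8a1 (chromosome 16, 57624258 to 57754737) divided the pairs in another way. It stood at 7.27, 9.38, 10.4, 10.5 and 29.6 RPKM in the SPOPmut libraries of S0 to S4, at 8.64, 10.9, 11.7, 9.54 and 28.2 RPKM in the controls, and at 22.5 and 31.4 RPKM in S5. The S4 and S5 pairs were thus alike in Col8a1, the others lay at most at 11.7 RPKM, and S3 stood with S0 to S2. Col8a2 was at most 1.20 RPKM and Col10a1 at most 0.054 RPKM. Of the 2 remaining collagens, Col28a1 passed 1 RPKM in the S4 mutant alone (1.25 RPKM) and Col26a1 stayed at or below 0.10 RPKM.

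**Figure D4:**
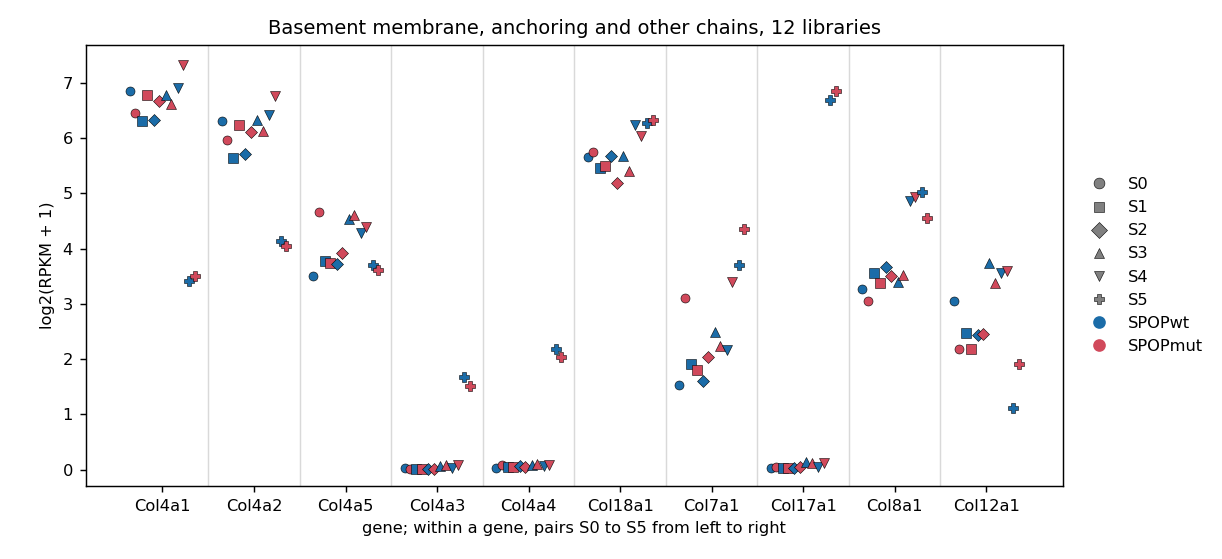
Level of basement membrane and other collagen genes in each of the 12 libraries, as log2(RPKM + 1), with 1 point per library, symbols for the pairs S0 to S5 and colors for the group. Col4a5 has its S5 points inside the range of the other pairs, Col7a1, Col18a1, Col4a3, Col4a4 and Col17a1 have them above it, and Col8a1 groups S4 with S5.

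Between SPOPmut and SPOPwt, the comparison the study was made for, 0 of the 19 tested collagen genes were called in limma with pair as a block, with adjusted p-values of 0.881 to 0.995. The background was the same, with 0% of the 13600 genes called. At an unadjusted p under 0.05, 3 collagen genes were higher (3.82% of all genes tested) and 0 lower (1.77%). On average over the pairs 13 were higher and 6 lower, where 50.2% of all genes were higher, and the median difference was 0.11 on the log2(RPKM + 1) scale, against 0.00055 for all genes. By class, the median was 0.36 for the 4 type VI genes tested, 0.23 for the 2 of the basement membrane zone, 0.12 for the 3 of type IV, 0.082 for the 7 fibrillar genes and 0.054 for the 2 fibril associated ones, and it was -0.14 for Col8a1, the 1 short chain gene tested.

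The smallest p-values were those of the type VI partners. Col6a1 was higher in SPOPmut in 6 of 6 pairs, by 0.46 (SE 0.144, 95% confidence interval 0.128 to 0.791, limma unadjusted p = 0.0126, adjusted p = 0.881). Its differences were 0.745, 1.003 and 0.713 in S0, S1 and S2, or 1.68-, 2.01- and 1.65-fold. In S3 and S4 they were 0.073 and 0.157, or 1.05- and 1.12-fold. In S5 the difference was 0.066 at 0.13 against 0.081 RPKM, a 1.63-fold ratio that adding 1 shrinks. Both type VI partners were near 0 in S5, so that pair says little about the size of the difference. The SPOPmut libraries of S0 to S2 thus stood above their controls and below all libraries of S3 and S4. Col6a2 showed the same order, with a mean of 0.51 (SE 0.177, limma unadjusted p = 0.0205, adjusted p = 0.881), differences of 0.628, 1.350 and 0.816 in S0 to S2, and 0.066, 0.191 and -0.008 in S3 to S5. Col6a3 did not share it, at -0.024 (SE 0.088) and 4 of 6 pairs higher. Beside these, the fibroblast receptor gene Pdgfrb was 34.4 against 15.4 RPKM (SPOPmut against SPOPwt) in S0, 32.1 against 13.7 in S1, 26.7 against 16.1 in S2, 74.3 against 69.9 in S3 and 91.2 against 62.1 in S4, and its part in the collagen differences was not tested. Of the 8 fibroblast markers, 5 were tested, of which 4 were higher and 1 lower in SPOPmut, where 50.2% of all genes were higher. At an unadjusted p under 0.05 in limma there were 3 (3.82% of all genes passed as higher and 1.77% as lower), and 0 were called. Whether the difference of Col6a1 itself differs between S0 to S2 and the others was not tested.

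Col7a1 was higher by 0.59 (SE 0.237, limma unadjusted p = 0.0359, adjusted p = 0.881), in 4 of 6 pairs. The difference was 1.584 in S0, 1.233 in S4 and 0.657 in S5, and -0.102 in S1, 0.434 in S2 and -0.245 in S3, so that it came mostly from S0 and S4. The only other tested collagen gene that was higher in 6 of 6 pairs was Col1a2, at 0.12 (SE 0.067), with S5 at 0.0073 against 0.0020 RPKM. A direction of higher in all 6 pairs held for 3.62% of all genes tested. The difference was -0.030 (SE 0.105) for Col1a1, 0.12 (SE 0.107) for Col3a1, 0.12 (SE 0.127) for Col4a1, 0.11 (SE 0.135) for Col4a2 and -0.13 (SE 0.094) for Col18a1, and none of these 5 reached an unadjusted p under 0.05 in the main limma fit. The 95% confidence interval was -0.272 to 0.213 for Col1a1 and -0.123 to 0.371 for Col3a1. Col12a1 was at -0.11 (SE 0.185), Col16a1 at 0.22 (SE 0.113) and Col8a1 at -0.14 (SE 0.086). Below the level filter, Col15a1 was 0.60 against 0.16 RPKM (SPOPmut against SPOPwt) in S0, 1.34 against 0.16 in S1, 0.67 against 0.25 in S2, 3.89 against 2.84 in S3, 2.65 against 1.90 in S4 and 0.16 against 0.055 in S5. It was picked out after its values were seen and, being below the filter, was not among the genes tested in the main fit. Fits with looser level filters included it and called 0 collagen genes between the genotypes. Col24a1, Col4a6 and Col6a4, also below the filter, were higher in 6 of 6 pairs too.

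The log2 ratio of Col1a2 to Col1a1 (each RPKM plus 1) differed between SPOPmut and SPOPwt by 0.15 ± 0.25 (SD over 6 pairs), was higher in 4 of 6 pairs, and gave p = 0.25 in an exact two-sided sign-flip permutation test, where 6 pairs allow 0.031 at best. With 1 added to each chain, the ratio therefore did not separate the genotypes beyond their spread. Adding 1 weighs on Col1a2 in S0 to S2 (0.67 to 1.22 RPKM) and on both chains in S5. The plain ratio, which split S3 and S4 from S0 to S2, was not tested between genotypes. It was higher in SPOPmut in S0 to S3 and in S5 (3.62 against 1.24%), and lower in S4 (1.52 against 1.78%).

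**Figure D5:**
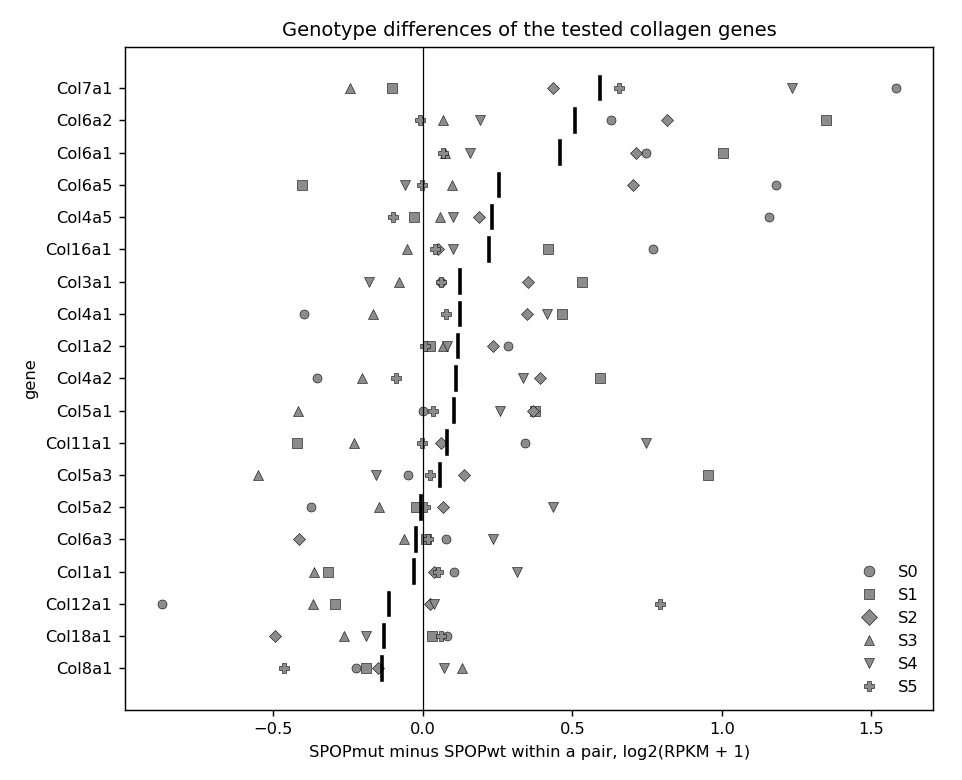
Difference between SPOPmut and SPOPwt within each of the 6 pairs for the 19 tested collagen genes, in log2(RPKM + 1), with symbols for the pairs and a black bar for their mean. Col6a1 and Col6a2 have their large differences in S0, S1 and S2, Col7a1 in S0 and S4, and the points of most other genes lie on both sides of 0.

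Most genes of collagen processing were lower in S5 than elsewhere, and collagen receptors were less uniform. Of 21 genes of collagen folding and modification, 20 were tested and 17 had both S5 libraries below all others (28.1% of all genes tested did), with a summed level of 924 to 1271 RPKM over S0 to S4 against 322 to 325 RPKM for S5. The collagen chaperone Serpinh1 ranged from 141 to 329 RPKM over S0 to S4 and from 6.20 to 7.22 RPKM over the S5 libraries. Between genotypes 13 of the 20 were higher and 7 lower, where 50.2% of all genes were higher. None passed the adjusted p, and 3 prolyl 3-hydroxylase family genes were higher at an unadjusted p under 0.05 in limma, as were 3.82% of all genes. They are listed under older symbols: Leprel1 (P3h2) was higher by 0.50 (SE 0.153), Leprel2 (P3h3) by 0.23 (SE 0.074) and Leprel4 (P3h4) by 0.23 (SE 0.082).

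Of 12 genes of propeptide cleavage and crosslinking, 9 were tested, 8 of them had S5 below all others, and 8 were higher and 1 lower in SPOPmut, against the same 28.1 and 50.2% of all genes. Lox, the lysyl oxidase that starts crosslinks between fibers, stood at 222, 96.2, 117, 214 and 265 RPKM in the SPOPmut libraries of S0 to S4 and at 95.3, 75.8, 83.3, 214 and 137 RPKM in the controls, and reached at most 0.061 RPKM in S5. It was higher by 0.50 (SE 0.167) on average, in 5 of 6 pairs, and was not called (limma adjusted p = 0.881). Of 4 fibril-binding proteoglycans only Dcn was tested, at 0.47 (SE 0.216). Of 10 collagen receptors, 6 were tested, all 6 were higher on average (50.2% of all genes were), and 0 had an unadjusted p under 0.05. Of these 6, 4 had S5 below all others and 1 above (28.1 and 21.4% of all genes). The smallest p was that of the integrin gene Itga2 (0.35, SE 0.182), which was the 1 above, at 9.27 and 7.45 RPKM in S5 and at most 4.90 RPKM elsewhere. The summed receptor level was 206 to 369 RPKM over S0 to S4 against 171 to 187 RPKM for S5, a far smaller gap than that of the fibrillar collagens. That sum was made up mostly of the integrin gene Itgb1, at 156 to 262 RPKM over S0 to S4 and 139 to 141 RPKM for S5. The receptor gene Ddr2, which binds fibrillar collagen, had 3.60 to 28.2 RPKM over S0 to S4 against 0.22 to 0.83 RPKM for S5. Its relative Ddr1 had 13.5 to 36.3 RPKM over S0 to S4, and its S5 levels of 23.8 and 34.6 RPKM lay inside that range.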

How the data were processed

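RNA-seq values of 12 libraries (6 SPOPmut, 6 SPOPwt) were analysed. The deposited values are RPKM that the authors computed per gene name, per the labels and file names, and the submitters' processing notes name STAR 2.4.0j with mm10 and GRCm38. No source used here gives the counting program, annotation, gene lengths or treatment of reads shared between genes, and TruSeq version 2 libraries do not mark strand. Low values lay at a multiple of 0.5 reads (within 0.04) in 45.5 to 49.2% of cases, where 16% would by chance, so whole reads were not recovered, no count test was run, and depth is an estimate. Collagens and gene lists were chosen with earlier results of these data known.

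Genes at 1 RPKM or more in at least 6 libraries (13600) were fitted as log2(RPKM + 1) in limma 3.58.1 (R 4.3.3) with pair and genotype, trended and robust, two-sided, with Benjamini-Hochberg adjustment and calls under 0.05. Adding 1 understates differences of low genes. The fit was tested on simulated data. Ratios used Python 3.11.15 and scipy 1.17.1. Per-library values were given for Col1a1 and Col1a2, for the 2 collagens of highest mean per class (mean of at least 1 RPKM), for those of such a mean above all others in S5, for those at an unadjusted p under 0.05, and for the 2 of widest spread over S0 to S4. Of other gene lists, members at an unadjusted p under 0.05 or else the smallest p were named, and of marker lists the 2 most abundant members. One marker list is not reported here. Other genes, such as Serpinh1, Ddr1, Ddr2, Itgb4, Pdgfra, Pdgfrb, Prrx1, Thy1, Fap, Pbsn, Upk3b, Wt1, Acan and Matn1, were picked after their values were seen.

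Pairs came from the labels, which speak of pairs and number both groups S0 to S5. The libraries of a pair deviated together in S1 to S5, with correlations of 0.753 to 0.954, but not in S0 (0.0602). For the S0 and S1 mutants, the control of highest correlation was that of S2 and not their own. The pairing of S0 thus rests on the labels. Positions are from GENCODE M21 on GRCm38, which holds all 44 collagens and 39432 of the gene names, and upstream sequences are from RefSeq (GRCm38.p6, 35 of the 44 genes). Alternatives were other pseudocounts, level filters, scalings and variance settings, pair weights, no block and leaving out each pair.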

Additional observations from a re-analysis of the deposited data

Results flagged for a closer look

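In each group of 6 libraries, a library was picked out when its gap to the nearest other, divided by the range of the group on the log2(RPKM + 1) scale, passed Dixon's 95% critical value, which chance does in about 1 of 20 groups. Of 43 groups checked (the levels of 14 collagen genes in each group of libraries, their pair differences and the Col1a2 to Col1a1 ratio), 15 passed, and the library that stood apart was S5 in each. Some of these genes, such as Col17a1, were named by a rule that uses the S5 values, and S5 was singled out with its values known. The rate of 1 of 20 therefore does not apply here, and the passes describe S5 without testing it. For the fibrillar genes the value was 0.825 (SPOPmut) and 0.889 (SPOPwt) for Col1a1 and 0.907 and 0.884 for Col3a1, with S5 low. It was 0.837 and 0.766 for Col6a1 and 0.760 and 0.670 for Col6a2, the type VI chains, and 0.694 for the fibril associated Col16a1 in SPOPmut, again with S5 low. For the basement membrane chains it was 0.772 and 0.828 for Col4a1 and 0.706 and 0.659 for Col4a2, with S5 low. For Col17a1, the hemidesmosome collagen, it was 0.986 and 0.983, with S5 high.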

How the results depend on the processing

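The count of collagen genes called between SPOPmut and SPOPwt was 0 in limma under every alternative run, with 0 (no block) to 8 (pair weights) at an unadjusted p under 0.05, as had 0.213% and 15.4% of all genes, of which pair weights called 9. Without a filter 31 of the 44 collagen genes were called between pairs (41.6% of all genes), and leaving out a pair gave 10 (without S5, 28.7% of all genes) to 19 calls (without S0, 82.5%) among the 19 tested. The difference was turned in sign for Col1a1 without S1 or S3, for Col6a3 without S2 and for Col12a1 without S0. Leaving out each pair in turn, Col1a1 ranged from -0.099 to 0.037, Col6a3 from -0.075 to 0.054 and Col12a1 from -0.30 to 0.038. The other 191 of 195 alternative values of the 13 tested genes with per-library values kept their sign, and 0 were called. Several still moved by over 1.5 times, for instance without 1 pair or with pair weights. Col4a1 went from 0.056 (without S1) to 0.228 (without S0) and Col4a2 from 0.016 to 0.206 (without the same pairs); without S2 they were 0.079 and 0.057, without S4 0.065 and 0.068, and Col4a2 was 0.175 without S3. Col3a1 was 0.042 without S1 and 0.079 without S2, Col18a1 -0.057 without S2, Col16a1 0.111 without S0 and Col8a1 -0.072 without S5. With pair weights, Col3a1 was 0.211, Col4a1 0.254, Col4a2 0.266, Col18a1 -0.304 and Col6a3 -0.181. Nearer to 0 with these weights were Col7a1 at 0.375, Col16a1 at 0.099 and Col12a1 at -0.059. The lowest adjusted p was 0.098, for Col6a1 with pair weights, and over all alternatives that gene ranged from there to 1. Without one pair, Col6a1 ranged from 0.351 to 0.538, Col6a2 from 0.339 to 0.610 and Col7a1 from 0.396 to 0.761; Col7a1 was lowest without S0. The Col1a2 to Col1a1 ratio difference ranged from 0.089 to 0.222 without one pair. With no replicate block that ratio difference was 0.15, with an exact permutation p of 0.799. Dropping the block changed no call between genotypes, and calls between pairs cannot be made without it. Depth is only estimated, so no counting interval is given for the low values in S5.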
